A study of Rattus norvegicus with 4 samples.

Results

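Astrocyte marker genes were examined in hippocampal RNA of rats after voluntary wheel running. The set consisted of 10 genes chosen by name: Gfap, Vim, Aqp4, Gja1, Slc1a2, Slc1a3, Glul, S100b, Aldh1l1 and Apoe, of 8893 genes that could be named on the chips. All 10 were found through the RefSeq accession of their probes, with 11 probes and 47 spots on each chip. The probes of Gfap, Aqp4, Gja1 and S100b had 10 spots each and the other 7 probes had 1, and only Slc1a3 had more than 1 probe.

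Male Wistar rats aged 10 weeks were housed singly and either had no wheel (sedentary, n = 10), a free running wheel (WR, n = 8) or a wheel with resistance (RWR, n = 8). The resistance started at 4.5 g and was raised to 30% of body weight over the 4 weeks of running, and the hippocampi were taken on the morning after the last day. RNA was pooled by group before labelling. WR was hybridised against sedentary on chips 1 and 2 and RWR against sedentary on chips 3 and 4, the running pool being in Cy5 on chips 1 and 3 and in Cy3 on chips 2 and 4. A dye swap repeats a measurement of 1 pool, so that no test between the groups was possible and every SD given here (n = 2 chips) is technical. Each pool combined equal amounts of RNA from 3 replicates, so the group sizes above are those of the housed rats and not of the pools.

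Astrocytes are the glial cells that clear glutamate from synapses, buffer potassium and water, supply neurons with lactate and lipids, and wrap blood vessels with their end-feet. They form intermediate filaments of GFAP and vimentin, and a rise of GFAP is the usual sign of astrocyte reactivity. In the hippocampus, Gfap and Slc1a3 are also made by the radial glia-like stem cells of the dentate gyrus, and Vim, S100b, Glul and Apoe are known from further cell types such as endothelium, oligodendrocytes and microglia. In whole tissue, fewer astrocytes and less RNA per astrocyte cannot be told apart.

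All 11 astrocyte marker probes were well above background on all 4 chips for either dye, and none was saturated. The whole hippocampus was sampled, and 11 of 11 measured neuronal markers and 8 of 8 oligodendrocyte markers were likewise well above background in both pools of both pairs. Across all probes, the ratio of Cy5 over Cy3 correlated between any chip and any other with a Pearson's r of 0.621 to 0.797, whichever pool carried Cy5. Turned to running over sedentary by the dye labels, r was -0.761 within the WR pair and -0.686 within the RWR pair. These correlations are across probes, which are not independent replicates, and the direction of every ratio rests on the dye labels.

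None of the astrocyte marker probes was called in either comparison. A call required a ratio above 1.5-fold, or one below 0.75-fold, from each chip of the pair, each with a p-value under 0.01 from the error model of the scanner software. By this rule 0.0317% of all probes were called in Sed × WR and 0.0585% in Sed × RWR. Without the p-value 0.549% and 1.48% of all probes passed, and the astrocyte markers still gave 0 in both comparisons. No astrocyte marker probe passed either cutoff even on a single chip, which 34.6% of all probes did in Sed × WR and 34.0% in Sed × RWR, and 10.9% and 10.8% of the probes with signals well above background throughout the pair. The markers lay between 0.843-fold and 1.16-fold of sedentary on the single chips. The lowest p-value of the error model was 0.229, for Aldh1l1 on chip 2.

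As means of the 2 chips, the astrocyte marker probes lay between 0.930-fold and 1.04-fold in WR and between 0.982-fold and 1.04-fold in RWR. The median log2 ratio of the 10 genes was 0.0074 in WR and 0.010 in RWR, against 0.0015 and -0.0046 over all named genes. On average of the 2 chips, the median absolute log2 ratio of the 10 genes was 0.023 in WR and 0.025 in RWR. Over all probes well above background the same quantity was 0.052 and 0.059. The median SD of the 2 chips was 0.216 for the 10 genes and 0.150 for those probes in WR. In RWR it was 0.155 and 0.147. The sets are not alike, since 4 of the marker probes average 10 spots while 40749 of all 41012 probes have 1.

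**Figure D1:**
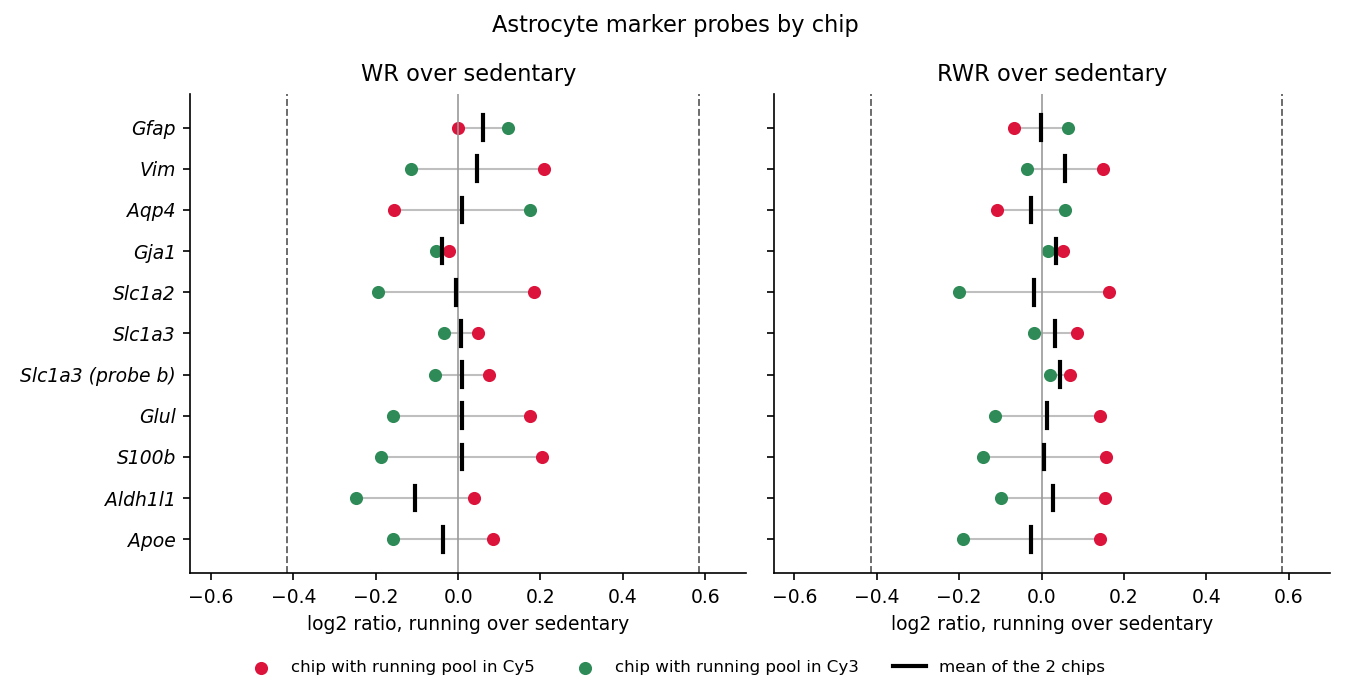
Log2 ratio of running over sedentary for each astrocyte marker probe in WR (left) and RWR (right). Points are single chips, coloured by the dye of the running pool, probe b of Slc1a3 is A_44_P167719, black bars are the mean of the 2 chips, and dashed lines are the 1.5-fold and 0.75-fold cutoffs (0.58 and -0.42). Every point lies between the cutoffs, from -0.25 to 0.21.

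Both intermediate filament genes had mean ratios near 1 over the dye swap, although some single chips of both genes lay farther from 1. For Gfap, which codes for the filament protein that defines astrocytes, the processed signal was 372 in WR and 372 in sedentary on chip 1, and 427 and 392 on chip 2. On chip 3 it was 489 in RWR and 513 in sedentary, and on chip 4 it was 490 and 468. The pools overlapped in both comparisons, and RWR was below sedentary on one chip and above it on the other. The log2 ratio of Gfap was 0.060 ± 0.087 (SD, n = 2 chips) in WR, from -0.0013 and 0.12 on the chips, and -0.00086 ± 0.094 (SD, n = 2 chips) in RWR, from -0.067 and 0.065.

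Vimentin (Vim), the filament protein of immature and reactive astrocytes and of vascular cells, had signals of 665 in WR and 575 in sedentary on chip 1 and of 545 and 591 on chip 2. In the RWR pair they were 698 against 629 on chip 3 and 566 against 580 on chip 4. In both pairs the running pool was the higher one where it carried Cy5 and the lower one where it carried Cy3. The mean log2 ratio of Vim was 0.047 ± 0.23 (SD, n = 2 chips) in WR and 0.057 ± 0.13 (SD, n = 2 chips) in RWR, the latter being the highest mean of the 11 probes in that comparison.

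The water channel of the end-feet, aquaporin 4 (Aqp4), had signals of 161 in WR and 180 in sedentary on chip 1 and of 178 and 158 on chip 2. In RWR it had 200 against 216 in sedentary on chip 3, and 178 against 171 on chip 4. For Aqp4 the pool in Cy5 was thus the dimmer one on all 4 chips. The log2 ratio of Aqp4 was 0.0090 ± 0.23 (SD, n = 2 chips) in WR and -0.025 ± 0.12 (SD, n = 2 chips) in RWR.

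Connexin 43 (Gja1), the main gap junction protein that couples astrocytes into a network, had the smallest difference between the chips of the 11 probes in both comparisons. Its signals were 9207 in WR and 9348 in sedentary on chip 1 and 8428 and 8753 on chip 2. They were 10520 in RWR and 10139 in sedentary on chip 3 and 8551 and 8452 on chip 4. WR was thus below sedentary on both of its chips and RWR above sedentary on both of its chips, with single ratios of 0.963-fold to 1.04-fold. The log2 ratio of Gja1 was -0.038 ± 0.023 (SD, n = 2 chips) in WR and 0.035 ± 0.026 (SD, n = 2 chips) in RWR.

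The genes of glutamate uptake and conversion likewise had mean ratios near 1 in both comparisons. Slc1a2 codes for GLT-1, the transporter that carries most of the glutamate uptake of the forebrain. Its signals were 8509 in WR and 7494 in sedentary on chip 1, and 6389 and 7312 on chip 2. In the RWR pair they were 8746 and 7809 on chip 3, and 6399 and 7354 on chip 4. In each pair the chips gave ratios of nearly equal size and opposite sign, with log2 ratios of 0.18 and -0.19 in WR and of 0.16 and -0.20 in RWR. The mean was -0.0058 ± 0.27 (SD, n = 2 chips) in WR and -0.019 ± 0.26 (SD, n = 2 chips) in RWR.

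Slc1a3 codes for GLAST, the other glial glutamate transporter, and was measured by probes A_42_P533183 and A_44_P167719 for the same transcript. At A_42_P533183 the signals were 24941 in WR and 24126 in sedentary on chip 1, 21676 and 22205 on chip 2, 27343 in RWR and 25777 in sedentary on chip 3, and 23328 and 23628 on chip 4. This gave a log2 ratio of 0.0066 ± 0.059 (SD, n = 2 chips) in WR and 0.033 ± 0.073 (SD, n = 2 chips) in RWR. A_44_P167719 gave 0.0094 ± 0.093 (SD, n = 2 chips) in WR and 0.046 ± 0.034 (SD, n = 2 chips) in RWR. Both probes were nearer to 0 in WR than in RWR, and the difference between the probes was smaller than the SD of the chips. In RWR A_44_P167719 was above 0 on both chips, with 0.070 and 0.022, whereas A_42_P533183 was not, with 0.085 and -0.018.

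Glutamine synthetase (Glul), which turns the glutamate taken up into glutamine, had signals of 1906 in WR and 1688 in sedentary on chip 1 and of 1618 and 1806 on chip 2. It had 2006 in RWR and 1819 in sedentary on chip 3, and 1623 and 1756 on chip 4. As for Slc1a2, the pool in Cy5 was the brighter one on every chip. The mean log2 ratio of Glul was 0.0083 ± 0.24 (SD, n = 2 chips) in WR and 0.014 ± 0.18 (SD, n = 2 chips) in RWR.

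Among the remaining markers, the largest mean ratio of the whole set belonged to Aldh1l1, the 10-formyltetrahydrofolate dehydrogenase that is used as a general astrocyte marker. Its signals were 1580 in WR and 1539 in sedentary on chip 1 and 1294 and 1536 on chip 2, so that the lower level in WR was seen on chip 2 and not on chip 1. In the RWR pair they were 1795 and 1612 on chip 3 and 1442 and 1543 on chip 4. The log2 ratio was -0.10 ± 0.20 (SD, n = 2 chips) in WR, from 0.038 and -0.25 on the chips, and 0.028 ± 0.18 (SD, n = 2 chips) in RWR. Of the 25495 probes well above background in Sed × WR, 77.7% had a mean ratio no larger than that of Aldh1l1 in size.

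Apolipoprotein E (Apoe), the lipid carrier that astrocytes secrete, had signals of 64929 in WR and 61209 in sedentary on chip 1 and of 51331 and 57251 on chip 2. In the RWR pair its signals were 69388 and 62893 on chip 3 and 50387 and 57532 on chip 4. No spot of this probe was saturated. The log2 ratio of Apoe was -0.036 ± 0.17 (SD, n = 2 chips) in WR and -0.025 ± 0.24 (SD, n = 2 chips) in RWR, with the chips of each pair on opposite sides of 0.

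S100b codes for a calcium-binding protein of astrocytes and of some oligodendrocytes. Its signals were 351 in WR and 305 in sedentary on chip 1, and 366 and 416 on chip 2. In the RWR pair they were higher in both pools, with 569 and 511 on chip 3 and 562 and 620 on chip 4. The log2 ratio was 0.0084 ± 0.28 (SD, n = 2 chips) in WR and 0.0071 ± 0.21 (SD, n = 2 chips) in RWR. Set side by side without the sedentary channel, the RWR pool was 1.58-fold above the WR pool for S100b, and the sedentary pool of chips 3 and 4 was also 1.58-fold above that of chips 1 and 2. The sedentary signal of S100b thus differed as much between the pairs of chips as the running signal did.

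**Figure D2:**
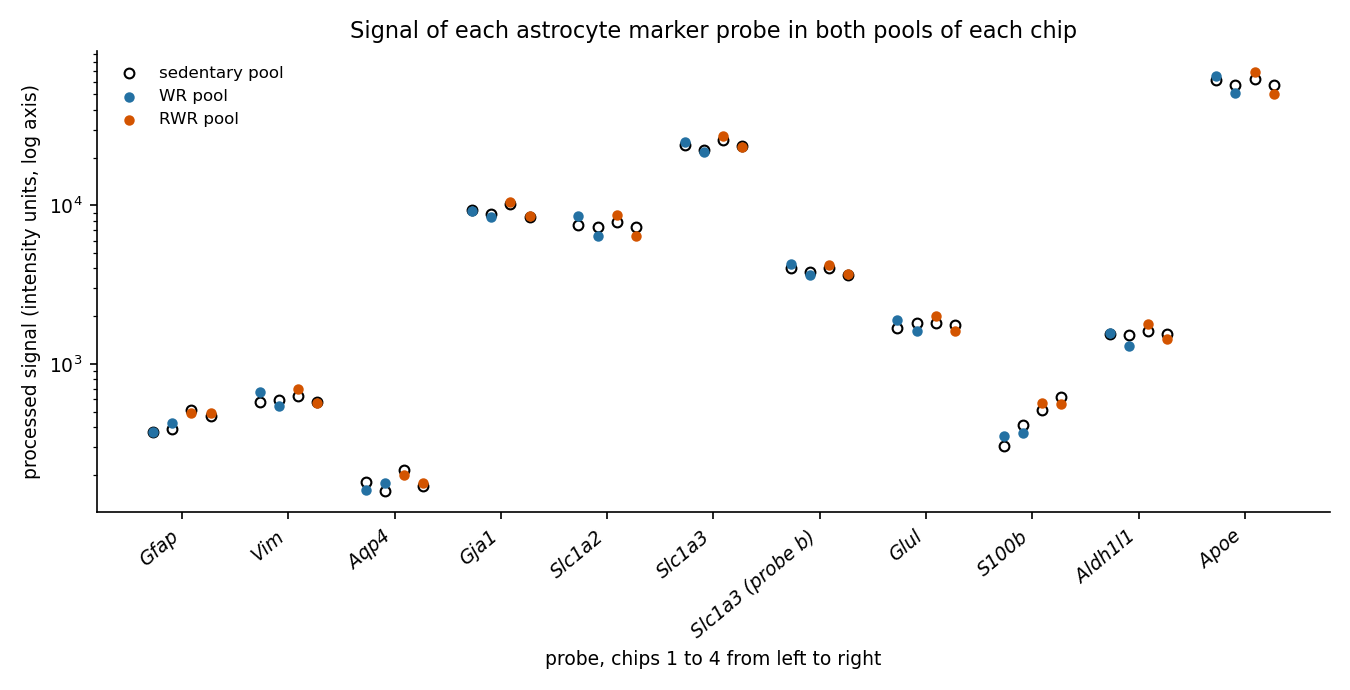
Processed signal (log axis, intensity units) of each astrocyte marker probe in the sedentary pool (open circles) and in the running pool (filled) on chips 1 to 4, from left to right within a probe. Levels of different probes are not comparable. The S100b signals of both pools lie higher on chips 3 and 4 (511 to 620) than on chips 1 and 2 (305 to 416).

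Most markers changed sign with the dye swap. In WR, 9 of the 10 genes had opposite signs on chips 1 and 2, 1 (Gja1) was below 0 on both, and 0 were above 0 on both. Over all named genes, 11.6% were below 0 and 12.2% above 0 on both chips, and over the probes well above background 13.8% and 14.4%. In RWR, 9 of the 10 genes had opposite signs on chips 3 and 4, 1 (again Gja1) was above 0 on both and 0 were below 0 on both, against 12.4% and 15.7% over all named genes and 16.6% and 15.4% over the probes well above background. The median log2 ratio of the 10 genes was 0.067 on chip 1 and 0.14 on chip 3, where the running pool carried Cy5, and -0.14 on chip 2 and -0.067 on chip 4, where it carried Cy3.

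The log2 ratio of Cy5 over Cy3, averaged over a pair of chips, was 0.20 for S100b in the WR pair and 0.15 in the RWR pair. For Slc1a2 it was 0.19 and 0.18, and for Glul 0.17 and 0.13. It was below 0 for Aqp4, with -0.16 and -0.082, and for Gfap, with -0.062 and -0.066, and above 0 for the other 8 genes. In size this dye term was larger than the mean ratio of running over sedentary at all probes, with exceptions at Gja1 and Slc1a3. At Gja1 it was 0.016 in WR and 0.018 in RWR, and at A_44_P167719 of Slc1a3 it was 0.024 in RWR. This repeats the sign counts above, since the dye term exceeds the mean exactly where the 2 chips have opposite signs. Among the probes well above background, 71.8% in WR and 68.0% in RWR had opposite signs. A mean ratio larger than the SD of its 2 chips was found at 1 of the 11 probes in WR (Gja1) and at 2 in RWR (Gja1 and A_44_P167719). With 2 chips such a mean requires the same sign on both. The probes found are those without opposite signs, so this count adds little to the sign counts. The share of all probes with such a mean is not given here.

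Repeated spots of a probe on 1 chip mostly lay close together. For Gfap, Aqp4, Gja1 and S100b the SD over the spots of a chip was between 0.019 and 0.073 on the log2 scale. The spots of S100b lay between 0.15 and 0.27 on chip 1 and between -0.23 and -0.13 on chip 2. For Gfap they lay between -0.068 and 0.079 on chip 1 and between 0.076 and 0.16 on chip 2. On chip 3 all spots of Gja1 lay above 0, from 0.018 to 0.083, and on chip 4 they ranged from -0.028 to 0.056. The spots of S100b did not overlap between chips 1 and 2, and those of Gfap overlapped narrowly. Spots of 1 chip share the labelled pools and do not stand for rats.

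**Figure D3:**
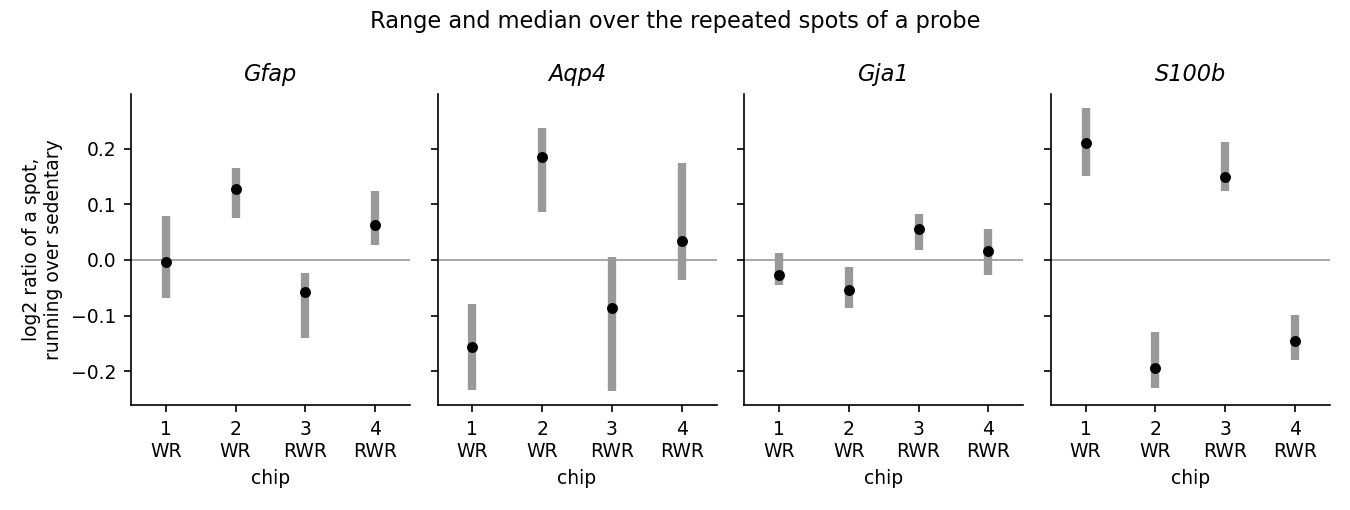
Log2 ratio of running over sedentary at the repeated spots of the 4 astrocyte markers with 10 spots, by chip. Grey bars run from the lowest to the highest spot and points are medians. The spots of S100b lie above 0 on chips 1 and 3 and below 0 on chips 2 and 4, and those of Gja1 lie nearest to 0.

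A wider list of 71 further astrocyte genes, of which 55 could be named on the chips, gave 0 calls in Sed × WR and 0 in Sed × RWR, where 0.0675% of all named genes were called in each. The median log2 ratio of the list was -0.016 in WR and 0.019 in RWR. In WR, 14 of the 55 genes were below 0 on both chips and 9 above, and in RWR 8 were below and 17 above. Of the probes well above background, as 54 of the 55 genes were, 13.8% were below and 14.4% above on both chips in WR, and 15.4% and 16.6% in RWR. These counts were not tested. Both comparisons share the sedentary group. The values below are mean log2 ratios of running over sedentary, with the ratio of each chip in parentheses, and none of these astrocyte and reactive genes was called.

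Among 8 genes of glutamate, glutamine, glycine and GABA handling, the median was -0.062 in WR and 0.036 in RWR. The GABA transporter Slc6a11 had -0.22 in WR (-0.35 and -0.094) and 0.073 in RWR (0.00013 and 0.15). The amino acid exchanger Slc7a10 had -0.071 in WR (-0.10 and -0.041). In the other comparison the glycine transporter Slc6a9 had -0.11 in RWR (-0.12 and -0.10). Slc6a11 was the gene farthest from 0 in WR, and no gene of the list kept a ratio above 0 on both chips there.

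Of the 7 measured genes of ion and water homeostasis and gap junctions, the potassium channel Kcnj10, which carries much of the potassium buffering of astrocytes, had -0.22 in WR (-0.20 and -0.25). The mean signals of Kcnj10 were only 40.6 in WR and 47.3 in sedentary. In RWR the chips of Kcnj10 had opposite signs (0.27 and -0.33). Its partner subunit Kcnj16 had -0.11 in WR (-0.11 and -0.11) and -0.070 in RWR (-0.048 and -0.093). The potassium channel genes were thus below 0 on both WR chips. The bicarbonate cotransporter Slc4a4 had 0.075 in WR (0.082 and 0.068) and 0.15 in RWR (0.13 and 0.17). Slc4a4 lay above 0 on all 4 chips, but it was picked for the same sign on both chips of a pair.

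In the lipid list of 7 genes, Lcat, which esterifies cholesterol on lipoproteins, had -0.26 in WR (-0.30 and -0.23) and -0.091 in RWR (-0.14 and -0.037). The cholesterol exporter Abca1, which loads lipid onto apolipoprotein E, had 0.12 in WR (0.051 and 0.19) and 0.16 in RWR (0.061 and 0.25). Lcat was below 0 and Abca1 above 0 on all 4 chips. Both were picked for the same sign on both chips of a pair, so this agreement comes partly from the selection. Both pairs also share the sedentary group. The share of all genes with the same sign on all 4 chips is not given here. Pla2g7, a lipoprotein-associated phospholipase, had -0.17 in WR (-0.024 and -0.31), and Clu, a further apolipoprotein, had 0.035 in RWR (0.0059 and 0.064). The median of the lipid list was -0.042 in WR and -0.018 in RWR.

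Of the 9 measured genes of metabolism and metal binding, Cbs, which makes cystathionine, had -0.088 in WR (-0.043 and -0.13) and -0.072 in RWR (-0.091 and -0.053). The brain aldolase Aldoc had -0.052 in WR (-0.081 and -0.023). With resistance, the serine synthesis enzyme Phgdh had -0.10 in RWR (-0.18 and -0.015) and the metallothionein Mt1 had 0.12 in RWR (0.23 and 0.017). The chips of Mt1 differed by more than its mean, and the median of these genes was -0.050 in WR and -0.017 in RWR.

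Receptors and secreted proteins, with 18 measured genes, had a median of 0.025 in WR and 0.020 in RWR. The sphingosine 1-phosphate receptor S1pr1, which endothelial cells also express, had -0.30 in WR (-0.35 and -0.25) and 0.14 in RWR (0.18 and 0.11). The mean signals of S1pr1 were only 27.6 in WR and 34.0 in sedentary, and 41.5 in RWR and 37.6 in sedentary. The p-values of the error model for S1pr1 were 0.317 and 0.460 in WR and 0.501 and 0.717 in RWR. Its chips lay on opposite sides of 0 in WR and RWR, and the difference was not tested. The neurotensin receptor Ntsr2 had -0.10 in WR (-0.088 and -0.11) and 0.035 in RWR (0.051 and 0.019). The inositol trisphosphate receptor Itpr2 had 0.16 in WR (0.11 and 0.20) and the glutamate receptor Grm5, also found in neurons, had 0.15 in WR (0.19 and 0.12). The phagocytosis receptor Mertk had -0.10 in RWR (-0.17 and -0.033) and 0.093 in WR (0.025 and 0.16). The chips of Ntsr2 and Mertk thus also lay on opposite sides of 0 in WR and RWR, which was not tested. With resistance, the glypican Gpc4 had -0.072 in RWR (-0.0074 and -0.14) and the urea transporter Slc14a1 had 0.10 in RWR (0.025 and 0.17).

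Transcription regulators and other filament genes had 6 measured members with a median of 0.017 in WR and 0.094 in RWR. The stem cell filament nestin (Nes) had -0.10 in WR (-0.075 and -0.12) and 0.16 in RWR (0.16 and 0.16), again on opposite sides of 0, and this difference was not tested either. The differentiation inhibitor Id4 had 0.093 in WR (0.11 and 0.072) and 0.21 in RWR (0.24 and 0.17), and the Notch target Hes5 had -0.10 in RWR (-0.15 and -0.045). Nes and Hes5 are also genes of the stem cells of the dentate gyrus.

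Genes of reactive astrocytes numbered 32, of which 25 were measured. In Sed × WR 17 of them were well above background in both pools throughout, and in Sed × RWR 21 were. The median of all 25 was -0.029 in WR and -0.038 in RWR. The hyaluronan receptor Cd44, also found on immune cells, had -0.34 in WR (-0.38 and -0.29) and -0.30 in RWR (-0.31 and -0.29). Cd44 was below 0 on all 4 chips, but it was picked for the same sign on both chips of a pair. In the WR pair the proteasome subunit Psmb8 had -0.35 in WR (-0.070 and -0.62), the complement gene C3 had 0.20 in WR (0.075 and 0.33) and the asparaginase gene Aspg had 0.21 in WR (0.30 and 0.11). The interferon-induced Gbp2 had -0.20 in RWR (-0.14 and -0.25) and -0.31 in WR (-0.27 and -0.35). The protease inhibitor Timp1 had 0.11 in RWR (0.18 and 0.041) and 0.031 in WR (0.14 and -0.076). The cyclooxygenase gene Ptgs2 had 0.12 in RWR (0.22 and 0.031) and 0.20 in WR (0.26 and 0.14). Gbp2 and Ptgs2 were thus farther from 0 in WR than in RWR. The reactive genes thus lay on both sides of 0 in each comparison.

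Markers of other cell types gave a single call. The choroid plexus gene Ttr was called lower in WR, with -0.86 in WR (-0.72 and -0.99), and had 0.12 in RWR (0.20 and 0.042). Folr1, the folate receptor of the choroid plexus, had -0.21 in WR (-0.067 and -0.36). The 6 genes of the choroid plexus and ependyma list had a median of -0.15 in WR, from -0.86 to 0.43, and of 0.12 in RWR, from 0.055 to 0.59, and only 3 of them in WR and 4 in RWR were well above background. The 11 measured neuronal markers had a median of 0.036 in WR and -0.0077 in RWR, and the 9 microglial markers 0.043 in WR and 0.12 in RWR. The 8 oligodendrocyte markers had a median of -0.073 in WR, from -0.19 to -0.051, and of -0.10 in RWR, from -0.29 to -0.024. The 3 measured markers of oligodendrocyte precursors had -0.10 and 0.0056, and the 6 of endothelial and mural cells 0.017 and 0.022. All oligodendrocyte means were thus below 0 in both comparisons, which share the sedentary group, whereas the 10 astrocyte markers were spread on both sides of 0. Of the 8 oligodendrocyte markers, 5 in WR and 4 in RWR were below 0 on both chips. The other 3 in WR and 4 in RWR had opposite signs. Among all probes well above background, 13.8% in WR and 15.4% in RWR were below 0 on both chips. These counts were not tested.

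**Figure D4:**
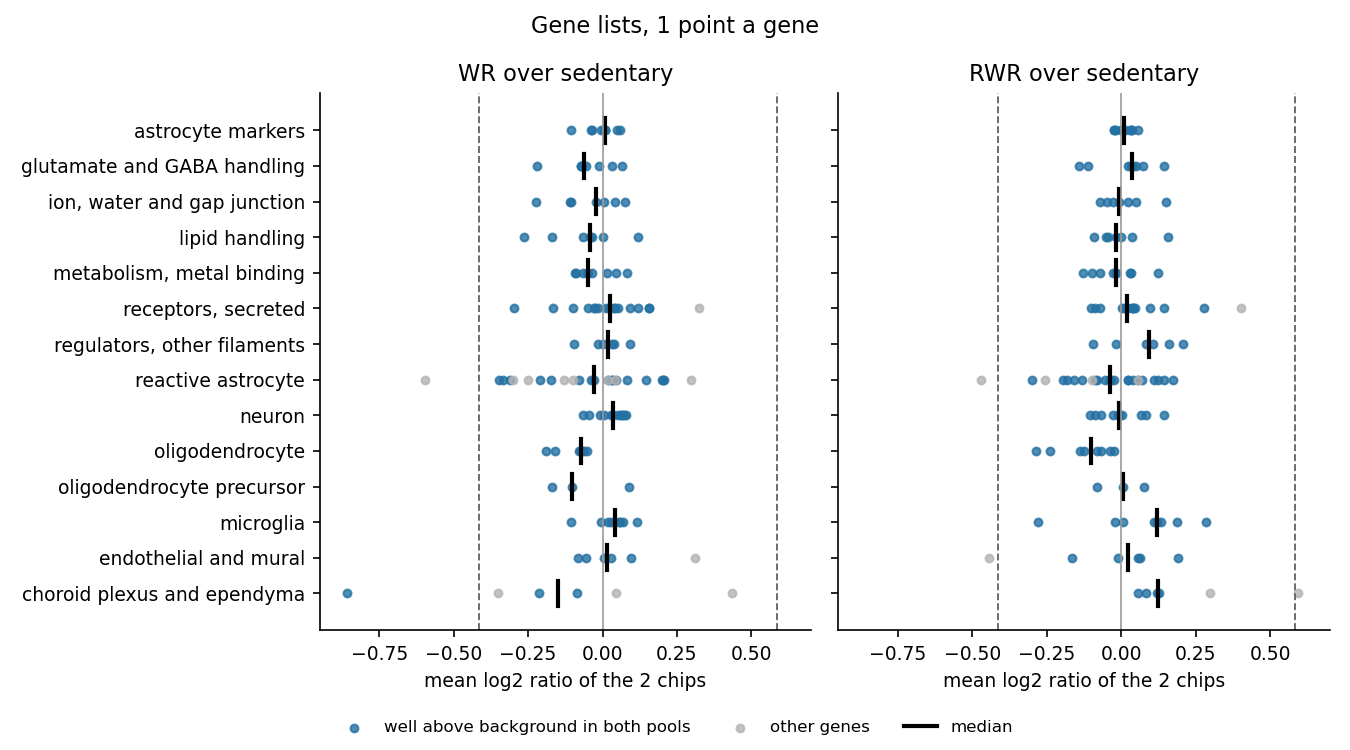
Mean log2 ratio of the 2 chips for every measured gene of each list in WR (left) and RWR (right), with the median of the list as a black bar. Blue genes were well above background in both pools on both chips, and dashed lines are the cutoffs at 0.58 and -0.42. The 10 astrocyte markers lie between -0.10 and 0.060 in WR and between -0.025 and 0.057 in RWR. Ttr lies past the lower cutoff in WR, and the grey points at or past a cutoff were not called.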

How the data were processed

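The authors labelled pooled hippocampal RNA with Cy3 or Cy5, hybridized it to a rat 4 × 44K oligo array and processed the scans with Agilent Feature Extraction 11.0.1.1. The deposited processed signal is an intensity after background subtraction, spatial detrending and LOWESS dye normalization. The deposited log10 ratio compares Cy5 with Cy3 and is 0 where no ratio was measurable. The deposited p-value comes from the error model of a single chip and does not cover the spread between rats. The deposited series matrix gives the same log10 ratio without those zeros and was used as an alternative.

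Groups were taken from the label of each dye. Control spots and spots with an outlier flag (118 to 140 per chip, 8 spots of the astrocyte markers in all) were dropped, each log ratio was expressed as log2 of running over sedentary, and spots of a probe were averaged. Probes were named by unversioned accession from the RefSeq table of GRCr8, used for names only, since the array was designed on rn4, and 10759 of 41012 probes were named. A gene was represented by its brightest probe. The genes and lists were chosen with earlier results of these data known. Outside the 10 markers, a rule took called genes and, per list and comparison, the 2 highest and 2 lowest genes well above background with 1 sign on both chips. It took 50 genes, of which those of the neuronal, other glial and vascular lists are given as medians, and for some the value of the other comparison is added. Some genes that the rule took are not reported here. Alternatives were computed with limma 3.58.1 in R 4.3.3 and with Python 3.11.15. The number of chips limits the precision.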

Additional observations from a re-analysis of the deposited data

Results flagged for a closer look

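Gja1 was singled out because both chips of WR lay below 0 and both chips of RWR above 0. As a mean of the chips, the log2 ratio to sedentary was -0.038 for WR (0.974-fold) and 0.035 for RWR (1.02-fold). This difference was not tested, since each group was a single pool. Repeated spots of Gja1 lay on both sides of 0 on chip 1 (-0.045 to 0.012) and on chip 4 (-0.028 to 0.056). The p-value of the error model was 0.785 to 0.924 on the 4 chips. The share of all genes with such opposite signs is not given here.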

How the results depend on the processing

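No astrocyte marker probe was called under any alternative that was run. Over 7 other ways of processing, the means of the 10 genes stayed between -0.10 and 0.062, and 140 of 140 values moved by less than the SD of their chips. Several of these ways could hardly move a marker. The background filter kept every marker probe, the series matrix holds the same ratios, and only Slc1a3 has more than 1 probe. The SD of the chips also includes the dye term. The count of markers above 0 on both chips of the WR pair was 1 with loess after a normexp correction and 1 with loess on uncorrected signals, against 0, and in RWR it was 2 when the probes of a gene were summarised by their median, against 1. With a single chip of the pair the markers above 0 numbered 2 to 7 in WR and 3 to 8 in RWR, those below 0 numbered 3 to 8 in WR and 2 to 7 in RWR, and the median log2 ratio of the markers was -0.14 to 0.067 in WR and -0.067 to 0.14 in RWR. The median of the wider astrocyte list was then 0.017 to 0.037 in RWR and -0.055 to 0.022 in WR, and 0 to 1 of its genes were called in WR, namely Cst3, which had log2 ratios of 0.59 on chip 1 and -0.54 on chip 2. Of 414 values under other processing, including those of the settings named above, 407 stayed within the SD of the chips or within 1.5 times the count. Naming by a gene name column was not run, since the accession was the only gene label used here. No paired analysis was possible because the labels carry no replicate numbers and each pair of chips repeats the same pools. The SD of the chips of a pair was 0.023 to 0.28 at the markers. It holds the dye term, which the mean over the dye swap cancels where it is constant. This SD is therefore not the precision of the mean, and the spread between rats is unknown.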

Other observations

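The sedentary signal of S100b was higher on chips 3 and 4 than on chips 1 and 2 by 0.66 on the log2 scale, and 99.0% of the 24955 probes that were well above background on all 4 chips lay below this value. For Gfap the same difference was 0.36, with 94.3% of those probes below it, and for Aqp4 it was 0.19, with 83.6% below it. The median of those probes was 0.070. The other astrocyte marker probes lay between -0.033 and 0.093. The running pools differed between the pairs of chips by 0.66 for S100b, 0.30 for Gfap and 0.16 for Aqp4. Whether the sedentary RNA of both pairs was 1 labelling or several is not given in the sources used here, and the source of the shift was not tested.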
